A study of Mus musculus with 18 samples.

Results

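The comparison asks whether loss of the retinoid receptors RXRg and RARb changed gene expression differently in 2 parts of the newborn mouse frontal cortex. For each gene, the change from control to mutant in orbital cortex was subtracted from the change from control to mutant in medial frontal cortex, on the log2 scale. A positive difference means that the mutant level, relative to its control, was higher in medial than in orbital tissue. The comparison rests on 12 of the 18 samples: 3 medial control, 3 medial mutant, 3 orbital control and 3 orbital mutant libraries. The other 6, from dorsal cortex, entered the model only to estimate the spread between libraries and the shared level of each row.

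All groups came from mice at postnatal day 0, and the labels name no treatment. The genotype label of the mutant is RXRg, RARb double mutant (dKO here), and that of the other group is control. The labels do not name the strain, the alleles, the deleted exons or a driver, nor do they say whether tissue was pooled or whether the 3 libraries of a group came from separate animals, so p-values measure the spread between these libraries. By title prefix and index row in the labels, the libraries fall into 6 rows that each hold 1 orbital, 1 medial and 1 dorsal library. The 3 control rows and 3 dKO rows form sets A, B and C, and set A carries another title prefix (RAR) than sets B and C (RXR). Triplets of values below are in the order of sets A, B and C and are counts per 1000000 fragments (CPM) after scaling of library sizes by the trimmed mean of M-values.

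Retinoic acid is made from vitamin A by retinol and retinaldehyde dehydrogenases and is removed by enzymes of the CYP26 family. It acts through nuclear receptors of the RAR family, which bind DNA as partners of RXR receptors at paired hexamers and recruit coactivators or corepressors. The meninges are a known source of retinoic acid for the developing cortex, and Rarb is itself a textbook target of the pathway. The sequence below is from the mouse Rarb promoter (RefSeq, GRCm38.p6, chr14:16575477-16575569, minus strand, shown 5′ to 3′ in the direction of the gene), and it is printed because Rarb is both a gene removed here and a readout of the pathway. Capitals mark 2 hexamers in direct repeat 5 bases apart, which lie 53 to 37 bases before the annotated start.

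Rarb: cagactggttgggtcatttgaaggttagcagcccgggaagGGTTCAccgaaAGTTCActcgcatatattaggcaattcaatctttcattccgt

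This repeat was searched with the consensus hexamer AGGTCA, the variant AGTTCA, the variant GGTTCA and the variant GGGTCA in any pair, on both strands, from 250 bases before to 50 bases after each start. It occurred in 32 of 32851 RefSeq promoters (0.0974%) and in 10 of 16227 promoters of genes tested (0.0616%). None of the 304 promoters listed for 214 of the genes whose dKO effect differed between regions held it. At such low shares, none among 304 is likely for any set of genes, so nothing is read from this. No match says only that these letters are not in that window.

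The targeted genes come first, since they check the labels, and for neither was a difference of the dKO effect between regions detectable. Rarb was at 7.42, 12.98 and 6.13 CPM in orbital control and 4.47, 3.13 and 2.31 CPM in orbital dKO. Its medial level was 3.67, 4.85 and 5.02 CPM in control and 2.72, 1.400 and 1.19 CPM in dKO. Every Rarb dKO library lay below all controls of its region, with a fitted log2 change of -1.37 in medial (adjusted p = 0.0686) and -1.44 in orbital tissue (adjusted p = 0.148), and the difference was 0.01 ± 0.38 (standard error, adjusted p = 0.992). Rxrg was at 2.36, 19.95 and 3.96 CPM in orbital control and 2.67, 1.59 and 0.412 CPM in orbital dKO, and at 2.15, 6.26 and 2.87 CPM in medial control and 1.05, 1.67 and 0.377 CPM in medial dKO. In set A the orbital dKO library was not below its control, so Rxrg separated the genotypes in 5 of 6 pairs. Its difference was 0.07 ± 0.65 (adjusted p = 0.968). Since the deleted exons are not given in the sources used here, whole-gene counts do not fully check either label.

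The 12 libraries held 29595577 to 93093398 fragments assigned to genes, and the 4 libraries of set A were deeper (at least 52317649) than the 8 of sets B and C (at most 34832614). Cortical markers were present in all 12, with Neurod6 at 916 to 1923 CPM and Tbr1 at 164 to 379.9 CPM. Xist RNA was present in dKO of sets A and C (11.3 to 28.9 CPM), with almost no Y-linked Ddx3y (at most 0.203 CPM), whereas all controls and the dKO libraries of set B had Ddx3y at 59.7 to 111 CPM. Sex therefore differs between genotypes in 2 of the 3 sets, in both regions alike.

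The dKO effect differed between medial and orbital tissue in 275 of 18730 genes tested (1.47%) by edgeR's quasi-likelihood test with each row as a block, at a Benjamini-Hochberg adjusted p below 0.05. The difference was higher in 128 genes (0.683%) and lower in 147 (0.785%), and 177 of the 275 differed by at least 2-fold. Among the 128, 111 had a positive effect in medial and a negative one in orbital tissue, and 14 had a positive effect in both. Among the 147, 141 had a negative effect in medial and a positive one in orbital tissue, and 6 had a negative effect in both. Over all 18730 genes, 4392 were positive in medial and negative in orbital tissue, and 3989 the reverse. Choosing genes by a large difference favours opposite signs, so nothing is read from these counts. The median difference was 1.19 over the 128 genes, -1.06 over the 147 and 0.015 over all genes tested. The dKO effect within a region passed the test for 389 genes in medial (221 higher, 1.18%, and 168 lower, 0.897%, together 2.08%) and for 7 in orbital tissue (5 higher, 0.0267%, and 2 lower, 0.0107%, together 0.0374%). Refits without the medial dKO library of set A, B or C called 67, 107 or 133 genes in medial tissue, and refits without medial control of set B or C called 122 or 158. In orbital tissue, refits without the control or the dKO library of set A called 3 or 4. With the set as a replicate block the counts in medial and orbital tissue were 662 and 14. With only the 6 libraries of the region they were 31 and 2. Tests within a region, here and below, had no row term. They treated the libraries of a row as independent, although these correlated at 0.363 (limma consensus), so their p-values do not allow for that dependence.

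The number of genes depended strongly on single libraries. The lowest adjusted p was 0.0184, and 3854 genes had an unadjusted p below 0.05. A refit without orbital control of set B or C called 63 or 66 genes, without medial control of set B or C 40 or 145, and without medial control of set A 1914. Without the orbital dKO library of set A, B or C the count was 1, 0 or 654, and without the medial dKO library of set A, B or C it was 0, 0 or 622. With orbital control of set A left out it was 253. A fit without the row block, a fit of the 12 libraries alone and a fit with sex by region each called 0 genes, with 1965, 2962 and 3465 genes at an unadjusted p below 0.05. DESeq2 with the same rows called 1689. All 60 genes named here that passed the test kept their direction under all 27 alternatives. These refits reuse the same libraries, and many of the genes were chosen for the same sign in the 3 sets. Nothing is therefore read from the kept direction. The number of alternatives in which such a gene passed the threshold ran from 7 (Plk1) to 18 (Mdk and Nwd2) of 27. Over all genes, the medial minus orbital values of the 3 dKO rows and the 3 control rows did not overlap in 3711 (19.8%, made up of 9.18% higher and 10.6% lower). The 275 were chosen on the same values, so nothing is read from their own overlap.

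**Figure D1:**
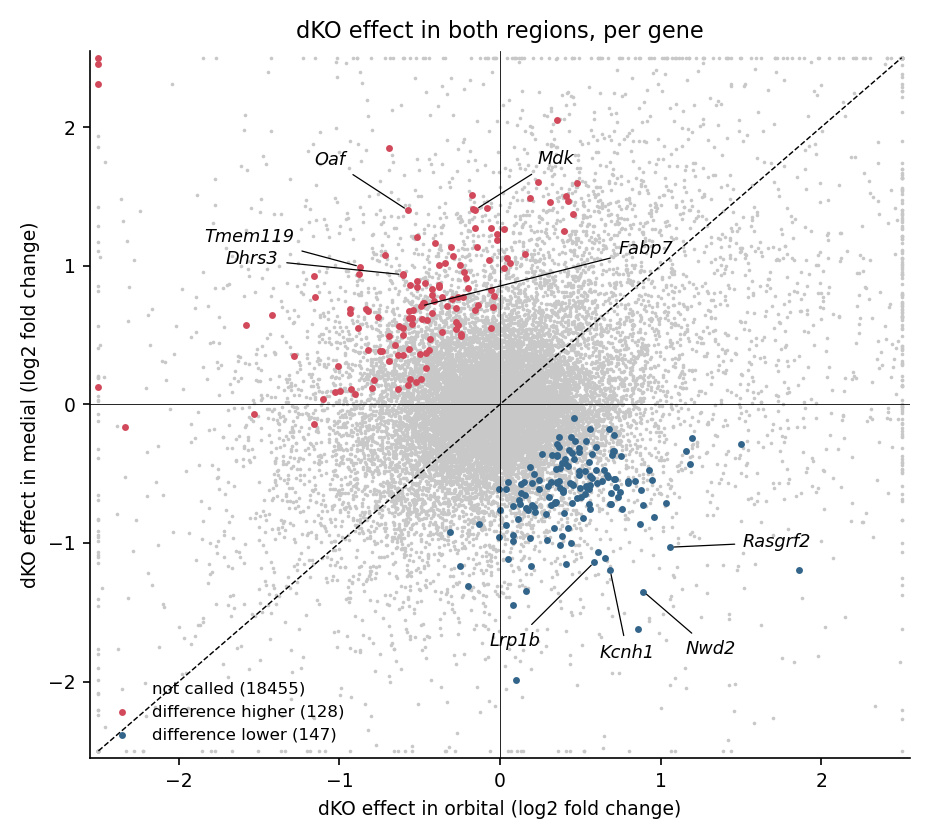
Change from control to dKO in orbital tissue (x axis) and in medial tissue (y axis), in log2 fold change, 1 point per gene for 18730 genes, with values beyond 2.5 drawn at the border. Red and blue points are the 128 and 147 genes whose difference was higher or lower, and the dashed line marks an equal effect in both regions. Most coloured points lie in the upper left and lower right, where the effects have opposite signs, which choosing genes by the difference itself favours.

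Among the genes with the smallest p of a higher difference were Mdk, Fabp7, Dbi, Ndrg2, Csrp1, Smpdl3a, Cd63, Clic1, Oaf, Hmgb2, Necap2 and Pmp22, all past the test. Mdk (chromosome 2, 91929805 to 91932297, GRCm38) encodes midkine, a heparin-binding growth factor of developing brain. Its level was 32.1, 34.02 and 65.9 CPM in orbital control and 45.7, 31.5 and 38.2 CPM in orbital dKO. Its medial level was 17.99, 18.02 and 30.1 CPM in control and 59.1, 57.3 and 56.4 CPM in dKO. Every medial dKO library thus exceeded every medial control library, while the orbital groups overlapped. The medial effect of 1.40 passed the test (adjusted p = 0.0186) and the orbital effect was -0.15 (adjusted p = 0.842). The difference was 1.55 ± 0.21 (adjusted p = 0.0184). Apart from the targeted genes, most named genes were chosen by a low p on these same values. Whether their groups overlap is therefore given as a description, here and below, and nothing is read from it.

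Fabp7, the brain lipid-binding protein of radial glia and a marker of olfactory ensheathing glia, was at 508, 552 and 637 CPM in orbital control, 485, 419 and 299 CPM in orbital dKO, 368, 395 and 425 CPM in medial control and 707, 747 and 487 CPM in medial dKO. The medial groups did not overlap and the orbital groups did not overlap either, with the lowest orbital control above the highest orbital dKO. Its difference was 1.20 ± 0.18 (adjusted p = 0.0184). Dbi, which encodes the acyl-CoA binding protein and is abundant in glia, was at 74.3, 86.5 and 116 CPM in medial control and 229, 287 and 207 CPM in medial dKO. In orbital tissue it was at 114, 126 and 251 CPM in control and 141, 171 and 109.7 CPM in dKO, with overlap, for a difference of 1.53 ± 0.23 (adjusted p = 0.0184).

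Csrp1, a cytoskeletal LIM-domain protein, had a medial effect that passed the test by itself. Its level was 22.3, 29.5 and 24.2 CPM in medial control and 65.9, 61.7 and 56.6 CPM in medial dKO, against 53.1, 44.3 and 54.3 CPM in orbital control and 48.8, 46.6 and 40.9 CPM in orbital dKO. The difference of 1.44 ± 0.20 (adjusted p = 0.0184) was thus carried by medial tissue, where the control level was the lowest of the 4 groups. Smpdl3a, a sphingomyelinase-like phosphodiesterase, had the same shape, with 19.1, 22.02 and 26.7 CPM in medial control and 50.4, 61.9 and 50.97 CPM in medial dKO and a difference of 1.31. Ndrg2, an astrocyte-enriched gene of the NDRG family, was at 132, 201 and 189 CPM in medial control and 312, 300.0 and 296 CPM in medial dKO, and at 261, 346 and 372 CPM in orbital control and 219, 248 and 257 CPM in orbital dKO. Here the groups did not overlap in either region, and the difference was 1.25 ± 0.17 (adjusted p = 0.0184).

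For Hmgb2, a chromatin protein of dividing cells, the level was 42.8, 29.8 and 67.4 CPM in medial control and 124, 161 and 142 CPM in medial dKO, and the difference was 1.36. Oaf was at 3.12, 2.35 and 4.803 CPM in medial control and 8.77, 10.6 and 7.71 CPM in medial dKO, with a difference of 1.99. The remaining 4 had differences of 1.11 for the tetraspanin Cd63, 1.25 for the chloride channel protein Clic1, 1.11 for the endocytosis protein Necap2 and 1.24 for the myelin protein Pmp22. In each of these 4, all control rows were lower in medial than in orbital tissue, by a fitted -0.77, -0.85, -0.89 and -1.18, against 0.34, 0.39, 0.22 and 0.06 in dKO.

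**Figure D2:**
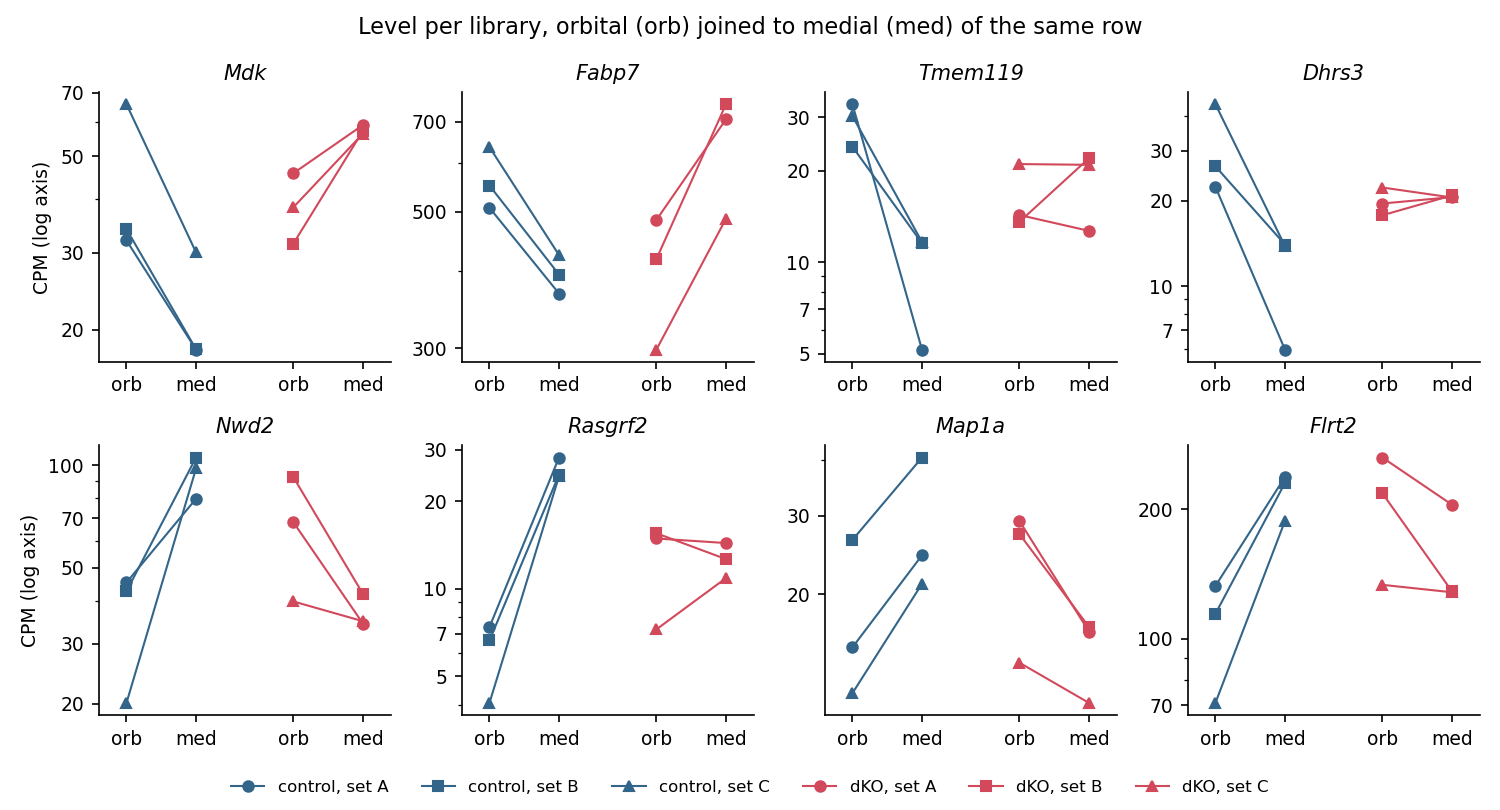
Level of 8 genes (y axis, CPM, log scale) in each of the 12 libraries, with the orbital and the medial library of a row joined by a line. Control rows are blue and dKO rows red, and circles, squares and triangles mark sets A, B and C. In Mdk, Fabp7, Tmem119 and Dhrs3 all control rows fall from orbital to medial, and in Nwd2, Rasgrf2, Map1a and Flrt2 all control rows rise.

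Among the genes with the smallest p of a lower difference were Kcnh1, Nwd2, Flrt2, Map1a, Arhgef28, Dzip3, Pde10a, Pla2g4e, Plcb1, Rasgrf2, Lrp1b and Dpysl3, all past the test. Nwd2 (chromosome 5, 63649102 to 63810546, GRCm38) encodes a neuronal protein with NACHT and WD repeat domains. Its level was 45.3, 42.7 and 20.1 CPM in orbital control and 68.1, 92.3 and 39.9 CPM in orbital dKO. Its medial level was 79.8, 105 and 97.9 CPM in control and 34.3, 41.9 and 34.9 CPM in dKO. All medial dKO libraries lay below all medial controls, whereas the orbital dKO libraries of sets A and B exceeded every orbital control and that of set C did not. The difference was -2.26 ± 0.33 (adjusted p = 0.0184), with -1.80, -2.44 and -2.47 in the 3 sets.

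Rasgrf2, a calcium-regulated exchange factor for Ras that marks upper-layer cortical neurons, had the largest medial to orbital contrast in controls among these 12. It was at 7.38, 6.64 and 4.05 CPM in orbital control and 28.2, 24.6 and 24.3 CPM in medial control, a log2 difference of 2.15 (adjusted p = 0.00398). In dKO it was at 14.9, 15.5 and 7.25 CPM in orbital and 14.3, 12.6 and 10.9 CPM in medial tissue, where medial minus orbital was 0.06 (adjusted p = 0.972). The difference of the dKO effects was -2.09 ± 0.34 (adjusted p = 0.023). Neither the medial effect (-1.03, adjusted p = 0.116) nor the orbital effect (1.06, adjusted p = 0.19) passed the test by itself.

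Kcnh1, a voltage-gated potassium channel, was at 9.89, 17.2 and 11.3 CPM in medial control and 7.54, 5.57 and 3.89 CPM in medial dKO. In orbital tissue it was at 7.44, 7.34 and 6.07 CPM in control and 13.5, 13.6 and 6.55 CPM in dKO, and its difference was -1.80 ± 0.26 (adjusted p = 0.0184). Map1a, a microtubule-associated protein of mature neurons, had 24.5, 40.5 and 21.1 CPM in medial control and 16.5, 16.9 and 11.4 CPM in medial dKO, without overlap, while its orbital groups overlapped (15.2, 26.5 and 12.01 CPM in control, 29.2, 27.3 and 14.1 CPM in dKO). Within sets its difference was -1.504, -1.30 and -1.11. Dpysl3, a collapsin response mediator of growing axons, was at 1288, 1289 and 1051 CPM in orbital control, 1852, 1939 and 1522 CPM in orbital dKO, 1730.4, 1814 and 1858 CPM in medial control and 1371, 1235 and 1451 CPM in medial dKO, so the groups did not overlap in either region and the difference was -0.97.

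Arhgef28, a guanine nucleotide exchange factor, had no detectable contrast between regions in controls. It was at 36.3, 23.4 and 44 CPM in orbital control and 32.6, 35.5 and 60.4 CPM in medial control (log2 difference 0.29, adjusted p = 0.311). In dKO it was at 42.6, 37.6 and 36.03 CPM in orbital and 17.6, 14.1 and 18.8 CPM in medial tissue (-1.21, adjusted p = 0.0306). The medial effect of -1.35 passed the test (adjusted p = 0.019) and the difference was -1.503. The others were Flrt2, an adhesion and guidance receptor (-1.502), Lrp1b, a lipoprotein receptor family member (-1.70), Plcb1, a phospholipase C (-1.30), Pla2g4e, a phospholipase A (-1.17), Pde10a, a phosphodiesterase typical of striatal neurons (-1.06), and Dzip3, a ubiquitin ligase (-1.01).

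Few genes had effects of at least 0.5 on the log2 scale in opposite directions in both regions and in all 3 sets. Of 14381 genes with a mean of at least 1 CPM, 2 were higher in medial and lower in orbital dKO (0.0139%). In the reverse direction, lower in medial and higher in orbital dKO, there were 5 (0.0348%). Another 69 were higher in both regions (0.48%) and 35 were lower in both (0.243%). Libraries of a row deviated together (correlations of 0.386 to 0.838), which favours the same direction in both regions. The counts of opposite and same direction are therefore not weighed against each other. The first 2 were Zpld1 and Tmem119. Tmem119, a microglial membrane protein, was at 33.1, 24.02 and 30.3 CPM in orbital control and 14.3, 13.6 and 21.1 CPM in orbital dKO, and at 5.16, 11.6 and 11.7 CPM in medial control and 12.7, 22 and 20.9 CPM in medial dKO. Its difference was 1.84 ± 0.36 (adjusted p = 0.0308). Zpld1, a zona pellucida-like domain protein, cleared the filter through orbital control alone. Its counts were 1451, 265 and 23 in orbital control, 18, 5 and 0 in orbital dKO, 5, 3 and 2 in medial control and 26, 7 and 10 in medial dKO, so no regional difference is given for it.

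The 5 genes of the other direction were Nwd2, Rasgrf2, Nrip1, Ppp1r26 and B230334C09Rik. Nrip1, a corepressor of nuclear receptors that is itself induced by retinoic acid in other cells, was at 287, 177 and 133 CPM in orbital control and 429, 388 and 255 CPM in orbital dKO. In medial tissue it was at 269.5, 307 and 306 CPM in control and 190.3, 187 and 201 CPM in dKO, so no medial dKO library reached a medial control. The difference was -1.500 ± 0.29 (adjusted p = 0.0303). Ppp1r26, a regulatory subunit of protein phosphatase, was at 34.1, 38.9 and 28.02 CPM in orbital control, 52.2, 55.4 and 41.5 CPM in orbital dKO, 46.8, 53.4 and 51.3 CPM in medial control and 29.6, 26.6 and 33.5 CPM in medial dKO, with a difference of -1.33. The transcript B230334C09Rik had a difference of -1.74 and was named for this count alone.

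Genes of the retinoic acid pathway had differences of both signs. Of 24 members tested, 15 had a positive difference, and 3 were higher and 1 lower by the test, beside 0.683% higher and 0.785% lower over all genes. The median was 0.13, beside 0.015 over all genes, and ran from 0.02 to 0.39 over the alternatives. The higher ones described here are Dhrs3 and Crabp2. Dhrs3, a retinaldehyde reductase, was at 22.4, 26.5 and 43.8 CPM in orbital control and 19.6, 17.8 and 22.3 CPM in orbital dKO. In medial tissue it was at 5.97, 14.02 and 13.8 CPM in control and 20.6, 20.9 and 20.6 CPM in dKO, for a difference of 1.54 ± 0.29 (adjusted p = 0.029). All 6 dKO libraries of Dhrs3 lay between the medial and the orbital controls.

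Crabp2, which delivers retinoic acid to the receptors, was at 26.9, 34.2 and 38.8 CPM in orbital control and 15.1, 9.57 and 9.47 CPM in orbital dKO, without overlap, and at 4.78, 13.1 and 19.4 CPM in medial control and 15.4, 11.1 and 8.09 CPM in medial dKO, with overlap. Its difference was 1.62 ± 0.31 (adjusted p = 0.0303), with 2.51, 1.59 and 0.77 within the sets. The 1 lower member was Nrip1, described above.

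The uptake and synthesis genes were near the threshold or short of it. Stra6, the retinol transporter, was at 78.4, 85.7 and 103 CPM in orbital control, 37.1, 44.8 and 44.5 CPM in orbital dKO, 6.39, 27.99 and 44.3 CPM in medial control and 48.7, 55.8 and 37.5 CPM in medial dKO. Its difference was 2.15 ± 0.50 (adjusted p = 0.0501), just short of the test. The retinol dehydrogenase Rdh10 had 0.86 (adjusted p = 0.0944), the retinaldehyde dehydrogenases Aldh1a2 and Aldh1a1 had 1.03 (adjusted p = 0.128) and 1.63 (adjusted p = 0.16), and the receptor Rarg had 1.14 (adjusted p = 0.13). These 5 were chosen after their values were seen, and the 13 members not named had differences from -1.36 to 1.26. Cyp26b1, which degrades retinoic acid, was at 21.9, 42.5 and 21.3 CPM in medial control and 10.6, 6.33 and 8.84 CPM in medial dKO, and its difference of -1.27 ± 0.96 (adjusted p = 0.484) rested on set B, with 0.01, -2.84 and -0.05 in the sets.

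Markers of meningeal fibroblasts had positive differences as well. Of 23 marker genes, 22 had a positive difference, 2 were higher by the test (Spp1 and Crabp2, beside 0.683% of all genes) and the median was 1.02, with 1.95, 1.68 and -0.53 in sets A, B and C. Their summed level was 2926 to 4155 CPM in orbital control, 1804 to 2655 CPM in orbital dKO, 658 to 2732 CPM in medial control and 1675 to 2329 CPM in medial dKO, and none of the 23 was at 0 throughout. The fitted median was 0.58, 0.63 and 1.77 without set A, B or C, and 1.597 with sex by region in the fit. Crabp2 is on both lists, and Spp1 did not follow this list, as described below. In these bulk samples fewer cells of a type and less RNA per cell cannot be told apart, and the part of meningeal tissue in the retinoid genes was not tested.

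**Figure D3:**
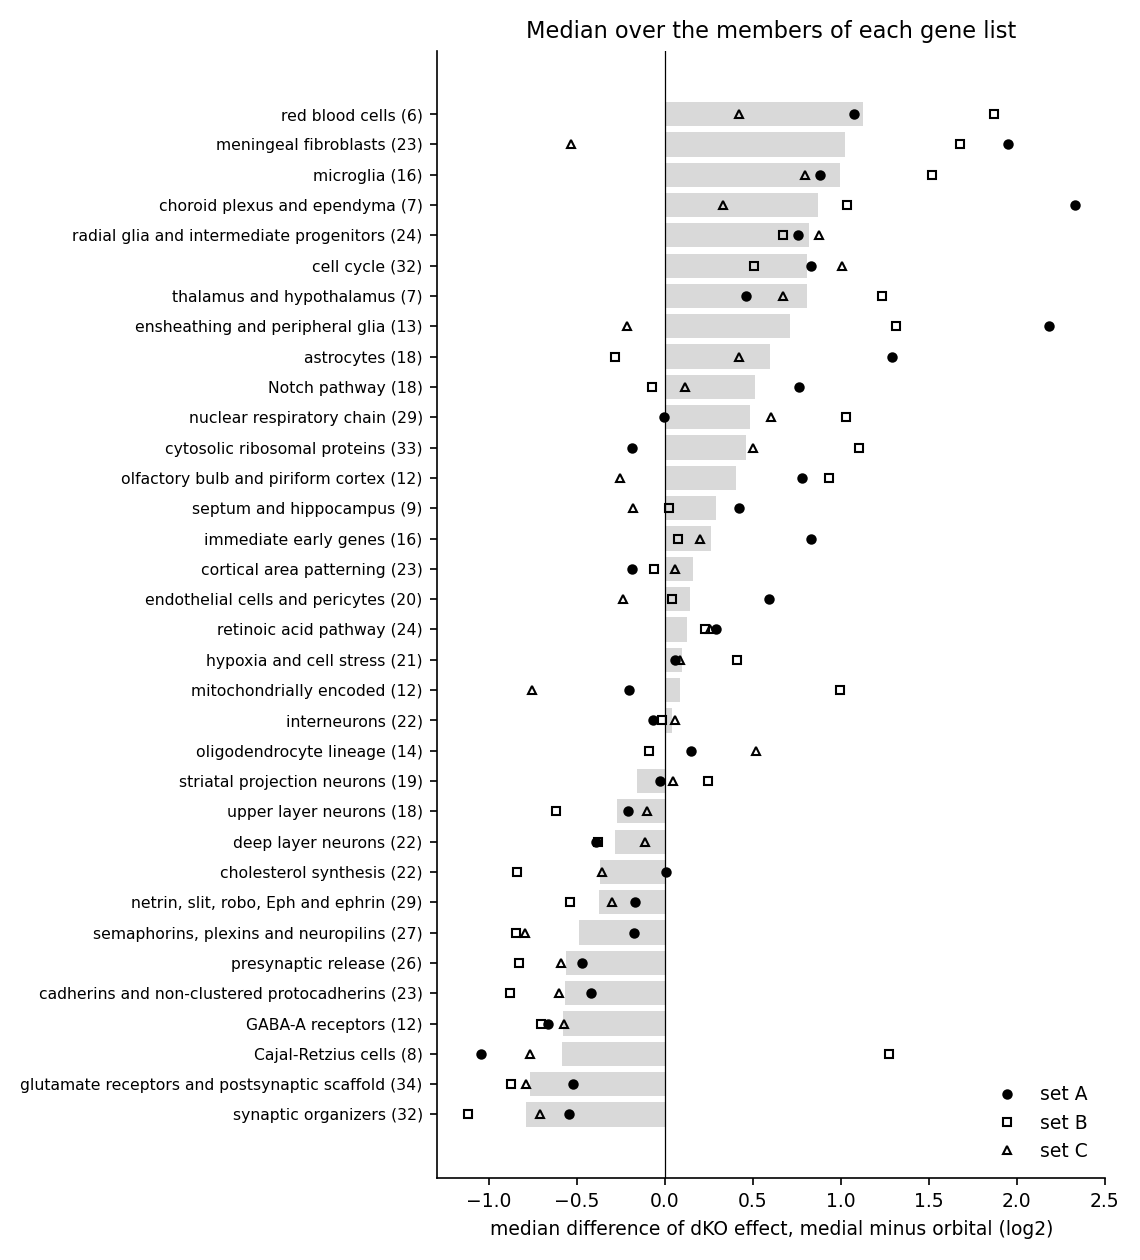
Median difference of the dKO effect, medial minus orbital (x axis, log2), over the tested members of each of 34 gene lists, with the number of members in parentheses. Grey bars are the fitted medians and the 3 symbols are the medians within sets A, B and C. Synaptic lists lie below 0 in all 3 sets, cell cycle, progenitor and microglial lists lie above 0 in all 3, and the meningeal and ensheathing glia lists change sign in set C.

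All 32 cell cycle genes tested had a positive difference, 4 were higher by the test (beside 0.683% of all genes) and none was lower. The median was 0.81, and 0.41 with sex by region in the fit, from a median effect of 1.49 in medial and 0.57 in orbital tissue. The 4 were Ccnb2, a cyclin of mitosis, Cdk1, its kinase partner, Plk1, a mitotic kinase, and Cenpa, the centromeric histone. Cdk1 was at 14.01, 12.03 and 10.9 CPM in medial control and 33.9, 32.8 and 28.4 CPM in medial dKO, without overlap, and at 23.5, 16.9 and 15.6 CPM in orbital control and 26.1, 24.8 and 24.6 CPM in orbital dKO, also without overlap. Its medial effect of 1.37 passed the test (adjusted p = 0.0026), its orbital effect was 0.45 (adjusted p = 0.276) and the difference was 0.91 ± 0.19 (adjusted p = 0.0328). For Ccnb2 the medial values were 7.84, 7.23 and 3.21 CPM in control and 19.6, 17.2 and 13.9 CPM in dKO, and the difference was 1.34. Plk1 had a difference of 1.17 and Cenpa of 1.15.

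Progenitor genes (radial glia, intermediate progenitors) had a median difference of 0.82 over 24 members, with 18 positive, and of 0.48 with sex by region in the fit and 0.51 without set C. The 2 that were higher by the test, beside 0.683% of all genes, were Fabp7 and Vim, the intermediate filament of radial glia. Vim was at 74.4, 70.6 and 89.3 CPM in medial control and 167, 127 and 127 CPM in medial dKO, against 136, 110.2 and 107 CPM in orbital control and 126, 103 and 109 CPM in orbital dKO, for a difference of 0.89 (adjusted p = 0.0328). Mfng, a glycosyltransferase of the Notch pathway (1.502, adjusted p = 0.0593), and Gas1, a hedgehog coreceptor (1.14, adjusted p = 0.0638), fell short of the test. Eomes, a transcription factor of intermediate progenitors and also of olfactory bulb neurons, was at 0.764, 3.700 and 0.420 CPM in orbital control and 11.7, 7.62 and 1.900 CPM in orbital dKO. In medial tissue it was at 0.924, 0.147 and 0 CPM in control and 24, 9.77 and 13.2 CPM in dKO, and the difference of 4.09 ± 1.44 did not pass (adjusted p = 0.136). Pax6, a regulator of radial glia, rose in medial dKO by 2.46 (adjusted p = 0.00449), at 4.58, 2.94 and 4.896 CPM in medial control and 34.2, 14.6 and 21.7 CPM in medial dKO, with a difference of 1.23 (adjusted p = 0.206).

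Synaptic genes had differences of the other sign. Over 34 glutamate receptor and postsynaptic scaffold genes the median difference was -0.76 and no member was positive. By the test, 5 were lower, beside 0.785% of all genes. The median exon length of this list was 9157 bases, and the longest of the length groups described below had a median difference of -0.34. Members of a list were read in the same libraries, so sign counts, here and for other lists, are not separate evidence. Grik2, a kainate receptor subunit, was at 59.8, 68.8 and 51.3 CPM in medial control and 49.7, 37.4 and 28.7 CPM in medial dKO, and at 39.04, 39.6 and 25.6 CPM in orbital control and 69.6, 47.3 and 32.6 CPM in orbital dKO. Its difference was -1.15 ± 0.20 (adjusted p = 0.0278), with -1.10, -1.13 and -1.18 in the sets. Also lower were the scaffold Dlg2 (-1.23), the NMDA receptor subunit Grin3a (-1.47) and the kinase subunit Camk2b (-0.83). Grin3a also had a medial effect that passed the test (-1.15, adjusted p = 0.0353).

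Synaptic organizers, the adhesion molecules that align both sides of a synapse, had a median of -0.79 over 32 members, with none positive and 4 lower by the test, beside 0.785% of all genes. Among these were Flrt2, Tenm1 and Flrt3. Flrt2 was at 133, 114 and 70.9 CPM in orbital control, 264, 218 and 134 CPM in orbital dKO, 238, 231 and 188 CPM in medial control and 205, 129 and 128 CPM in medial dKO, so medial exceeded orbital in all 3 control rows and orbital exceeded medial in all 3 dKO rows. The teneurin Tenm1 had -1.64 and Flrt3 had -0.81. Among 26 presynaptic release genes the median was -0.56, none was positive and 2 were lower by the test (beside 0.785% of all genes), the active zone scaffolds Pclo (-1.02) and Rims1 (-1.03). The calcium sensor Syt1 (-1.004, adjusted p = 0.0593) fell short of the test.

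Inhibitory receptor genes had the same sign. Of 12 subunits of the GABA-A receptor, 11 had a negative difference and 4 were lower by the test (beside 0.785% of all genes), with a median of -0.58. Among the lower ones were Gabra3 (-0.95, adjusted p = 0.0322) and Gabrb2 (-1.51, adjusted p = 0.0328). Gabra3 was at 76.5, 82.03 and 93.7 CPM in medial control and 53.2, 53.7 and 64.9 CPM in medial dKO, without overlap, and at 70.7, 48.3 and 62.1 CPM in orbital control and 67.9, 87.1 and 79.4 CPM in orbital dKO, with overlap.

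Adhesion and guidance genes had a lower median as well, with fewer calls. Of 23 cadherins and protocadherins, 22 had a negative difference, the median was -0.57 and 2 were lower by the test, beside 0.785% of all genes. Cdh8, a cadherin with a graded level across cortical areas, was at 76.4, 73.7 and 48.1 CPM in orbital control and 95.9, 140.0 and 86.6 CPM in orbital dKO, and at 128, 143 and 94.2 CPM in medial control and 82.2, 106 and 102 CPM in medial dKO. Its difference was -1.01 (adjusted p = 0.0278), and that of Cdh10 was -1.01 (adjusted p = 0.0328). Of 27 semaphorins, plexins and neuropilins none passed, with a median of -0.49 and Plxnc1 the lowest in p (-1.32, adjusted p = 0.0606). Of 29 netrin, slit, robo, Eph and ephrin genes none passed, with a median of -0.37 and Efnb2 lowest in p (-0.67, adjusted p = 0.0632).

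Neuron identity genes had medians nearer 0. Upper layer markers had a median of -0.27 over 18 members with 1 lower by the test (beside 0.785% of all genes), and deep layer markers -0.28 over 22 with none. The area patterning list had a median of 0.16, with 13 of 23 members positive. In it, 2 were lower by the test (beside 0.785% of all genes), Mef2c and Cdh8, which is counted among the cadherins too. Mef2c, an activity-dependent transcription factor, was at 973, 1113 and 999.1 CPM in medial control and 651, 727 and 699.6 CPM in medial dKO, with a difference of -0.98 (adjusted p = 0.0328). Septum and hippocampus markers had a median of 0.29, with 5 of 9 positive and 1 lower by the test (beside 0.785% of all genes), Zeb2 (-0.84, adjusted p = 0.0431). Zeb2 was at 96.7 to 406 CPM in these cortical libraries, so its call is not read as one of septum or hippocampus. Rprm, a deep layer marker, had -0.77 (adjusted p = 0.0608), and the 22 interneuron genes had a median of 0.04 with none past the test.

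Microglial and astrocyte markers had positive medians, whereas the 14 oligodendrocyte lineage genes had a median of 0.0028, with 7 positive. Microglial genes had a median difference of 0.99 over 16 members, with 15 positive and 3 higher by the test (beside 0.683% of all genes), which were Tmem119, the phagocytic receptor Trem2 (1.88) and the lysosomal protein Cd68 (1.17). The complement gene C1qc had 1.28 (adjusted p = 0.0537). The summed microglial level was 402 to 486 CPM in orbital control, 244 to 345 CPM in orbital dKO, 179 to 329 CPM in medial control and 297 to 348 CPM in medial dKO, so every orbital control library lay above the other 9 libraries, and the dKO groups overlapped. Astrocyte genes had a median of 0.60 with 1 of 18 higher by the test (beside 0.683% of all genes), the lipoprotein gene Apoe, at 698, 707 and 1291 CPM in orbital control, 647, 546 and 601 CPM in orbital dKO, 194, 375 and 753 CPM in medial control and 674, 691 and 633 CPM in medial dKO (difference 1.33). The glycolytic enzyme Aldoc had 1.20 (adjusted p = 0.119), and the astrocyte median within sets was 1.29, -0.28 and 0.42 and the fitted median was 0.30 or 0.32 without set A or C and -0.04 with sex by region.

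Markers of ensheathing glia, which lie next to the cortex, did not overlap between the control regions in their summed level. This was not particular to them. Meningeal, microglial, endothelial, choroid plexus and blood markers did not overlap either, nor did deep layer and presynaptic genes. Summed levels of olfactory bulb, striatal, septal and thalamic markers did overlap. Of 13 tested genes of ensheathing and peripheral glia, 11 had a positive difference and 3 were higher by the test (beside 0.683% of all genes), Fabp7 among them. The median was 2.18 in set A, 1.32 in set B and -0.22 in set C. Their summed level was 909 to 1027 CPM in orbital control, 513 to 628 CPM in orbital dKO, 517 to 598 CPM in medial control and 651 to 971 CPM in medial dKO. Much of this sum is Fabp7, which is also a radial glia gene. Fabp7 alone was at 368, 395 and 425 CPM in medial control and 707, 747 and 487 CPM in medial dKO. The rise of the sum in medial dKO is therefore not read as one of ensheathing glia. Prss56 had counts of 4260, 228 and 85 in orbital control and 5, 3 and 7 in orbital dKO, and in medial tissue 2, 2 and 0 in control and 25, 0 and 0 in dKO. It cleared the filter through orbital control alone, and medial levels were at or under 3 counts in 5 of 6 libraries, so no regional difference is given for it.

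Blood genes had a summed level of 1667 to 2001 CPM in orbital control, 824 to 2423 CPM in orbital dKO, 817 to 1163 CPM in medial control and 1472 to 2868 CPM in medial dKO. Their median difference was 1.13 over 6 genes (0.71 without set B) with none past the test, and the globin gene Hba-a1 had 1.27 (adjusted p = 0.0859). Of the meningeal list, Spp1, the secreted phosphoprotein osteopontin, was at 17.03, 16.4 and 15.1 CPM in medial control and 39.01, 97.6 and 67.7 CPM in medial dKO, with a difference of 1.67 (adjusted p = 0.0278), and Wnt6 had 1.59 (adjusted p = 0.0882). Spp1 did not follow its list in set C, where its difference was 1.44 and the list median -0.53. Its medial dKO level also lay above every orbital control (31.7, 31.3 and 23.6 CPM). The summed level of the list in medial dKO lay below every orbital control. The call of Spp1 is therefore not read as one of meningeal cells. For all of these markers, the part that dissection or cell makeup plays in the differences of other genes was not tested.

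Genes led by the medial effect and genes led by the orbital effect showed both patterns side by side. Fam210b, a mitochondrial protein, was at 157, 93.1 and 90.7 CPM in medial control and 341, 413 and 479.7 CPM in medial dKO, and at 124, 104 and 95.8 CPM in orbital control and 212, 229.8 and 164 CPM in orbital dKO. All dKO libraries exceeded all controls in both regions, with an effect of 1.89 in medial (adjusted p = 0.00107) and 0.91 in orbital tissue (adjusted p = 0.137), and its difference of 0.98 fell short (adjusted p = 0.0528). Among genes that fell in medial dKO, Far2, a fatty acyl-CoA reductase, was at 47.2, 50.2 and 43.1 CPM in control and 23.3, 18.97 and 20.7 CPM in dKO, and its difference of -0.91 passed (adjusted p = 0.0324). Syn2, a synaptic vesicle synapsin, fell in medial tissue by 1.08 on the log2 scale (adjusted p = 0.00287), with a difference of -0.66 (adjusted p = 0.0915). Hmgcs1, an early enzyme of cholesterol synthesis, fell by 1.12 there (adjusted p = 0.00287), with a difference of -0.74 (adjusted p = 0.0792). Ptx3, a secreted pentraxin, rose in medial tissue by 2.12 (adjusted p = 0.00279) with a difference of 0.94 (adjusted p = 0.144).

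In orbital tissue, Tenm4, a teneurin, rose by 1.54 (adjusted p = 0.049), from 22.3, 22.2 and 16.6 CPM to 85.5, 62.95 and 35.1 CPM. Its medial values were 38.4, 31.5 and 39.98 CPM in control and 78.04, 54.9 and 57.9 CPM in dKO, and its difference was -0.72 (adjusted p = 0.202). The X-linked helicase gene Ddx3x had an orbital effect of 1.12 (adjusted p = 0.0579) and a difference of -0.65 (adjusted p = 0.107). Lipg, an endothelial lipase, was at 3.79, 2.03 and 1.83 CPM in orbital control, 6.95, 8.55 and 5.13 CPM in orbital dKO, 13.9, 12 and 10.1 CPM in medial control and 13.1, 8.5 and 8.44 CPM in medial dKO, and its difference of -1.77 passed (adjusted p = 0.0328). Anxa5, an annexin, was at 113, 105 and 122 CPM in orbital control and 50.3, 47.4 and 60.3 CPM in orbital dKO, about the medial control level of 38.8, 55.98 and 65.3 CPM, and its difference was 1.14. The tetraspanin Cd82 (1.01), the extracellular matrix gene Olfml3 (1.09) and the oxygen sensor Egln3 (1.08) also passed.

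The same comparison can be read as the medial to orbital contrast within each genotype, which shares its libraries with the difference and is given as a description of where the difference lies. Medial minus orbital passed the test for 1690 genes in control (840 higher, 4.48%, and 850 lower, 4.54%, together 9.02%) and for 3 in dKO (1 higher, 0.00534%, and 2 lower, 0.0107%, together 0.016%). The 3 were Scg2, Arhgef28 and Tspan18. Scg2, a secretogranin of dense-core vesicles, was at 46.1, 95 and 93.1 CPM in orbital dKO and 12.3, 18.2 and 20.01 CPM in medial dKO, against 58.99, 46.2 and 112 CPM in orbital control and 18.6, 51.2 and 62.3 CPM in medial control. Tspan18, a tetraspanin, was at 36.6, 40.2 and 34.3 CPM in orbital dKO and 74.03, 101 and 128 CPM in medial dKO (1.43, adjusted p = 0.0037). It was higher in medial tissue in both genotypes, and its dKO effects differed by 0.91 (adjusted p = 0.0485). Leaving out set A, B or C changed the control count to 0, 22 or 527 and the dKO count to 3, 0 or 0, and the fit of the 12 libraries alone gave 8 and 0.

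The spread of the contrast over genes was smaller in every dKO row. Over 11514 genes of at least 5 CPM, the SD of medial minus orbital was 0.590, 0.484 and 0.608 in the control rows of sets A, B and C and 0.321, 0.417 and 0.385 in the dKO rows. The means were 0.561 ± 0.0674 and 0.374 ± 0.0489 (SD, n = 3 rows each), and the rows did not overlap, with a two-sided exact permutation p of 0.1, the smallest that 3 against 3 allows. Genes with at least a 2-fold regional difference made up 7.76%, 4.89% and 10.2% in control rows and 0.764%, 2.35% and 2.61% in dKO rows.

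Genes chosen as regional in the controls of 2 sets were then read in the set left out. For the 100 genes highest in medial, the median of medial minus orbital in the set left out was 0.32, 0.55 and 1.07 in control of sets A, B and C and -0.23, -0.30 and 0.34 in dKO. For the 100 genes highest in orbital, it was -1.81, -1.11 and -0.43 in control and 0.07, 0.37 and -0.70 in dKO. In sets A and B the contrast thus turned in dKO for both gene groups. In set C it was smaller in dKO for the medial genes. The orbital genes of set C kept their direction in dKO, with a larger contrast than in control. Both gene groups of a set were read in the same libraries, so they are not separate comparisons.

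**Figure D4:**
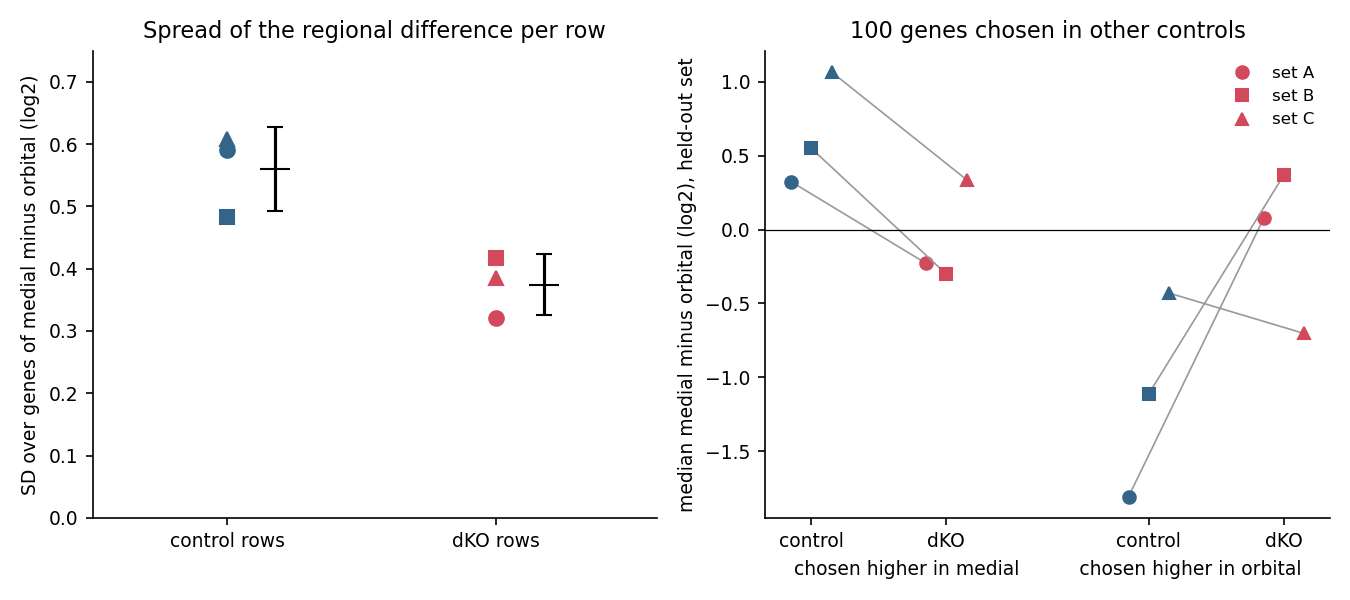
Left, the SD over 11514 genes of medial minus orbital (y axis, log2) in each control row (blue) and dKO row (red), with the mean ± SD of 3 rows in black. Right, the median of medial minus orbital (y axis, log2) in the set left out, for 100 genes chosen as higher in medial or in orbital tissue in control rows of the remaining 2 sets, where lines join control and dKO of a set. All dKO rows lie below all control rows on the left, and on the right set C keeps its sign in both gene groups.

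The difference also ran with gene length. Genes of at least 5 CPM were split into 5 equal groups by the summed length of their exons, with median lengths of 1892 bases in the shortest group and 10304.5 in the longest. The median difference was 0.28 in the shortest group and -0.34 in the longest. It was 0.03 and -0.17 in set A, 0.42 and -0.47 in set B, and 0.37 and -0.42 in set C. Genes with a higher difference had a median length of 2650 bases, those with a lower one 9152, and all genes of at least 5 CPM 4669. Synaptic organizers (8867 bases) and glutamate receptors (9157 bases) are long, and ribosomal protein genes (1770 bases) are short.

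With a smooth trend of level on length removed from each library, a correction chosen after seeing the data, the medians of the shortest and longest groups were 0.11 and -0.07 and 415 genes passed the test. Of the 275 genes, 214 passed again in the same direction. The median was then -0.64 for synaptic organizers, -0.61 for glutamate receptors, 0.77 for cell cycle genes and 0.83 for microglial genes. The 33 cytosolic ribosomal protein genes had a median difference of 0.46 as fitted, with -0.19, 1.10 and 0.50 in sets A, B and C, and the 29 nuclear respiratory chain genes had 0.48, with none past the test in either list. Rps14 had 1.497 (adjusted p = 0.111) and Ndufa4 0.83 (adjusted p = 0.23). What sets the length trend was not tested.

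**Figure D5:**
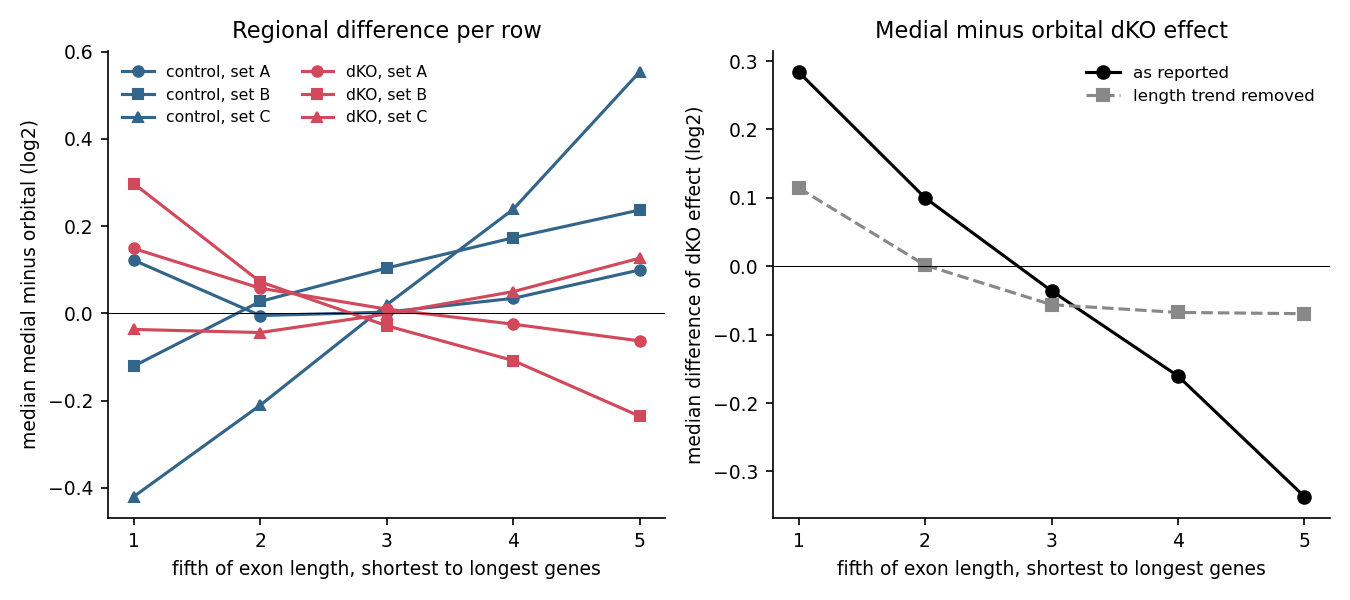
Left, the median of medial minus orbital (y axis, log2) in each of 5 groups of exon length (x axis, 1 shortest to 5 longest) for the control rows (blue) and dKO rows (red) of the 3 sets. Right, the median difference of the dKO effect per group as reported and with the length trend removed. In controls of sets B and C long genes are higher in medial tissue, in dKO of sets A and B they are lower, and removing the trend brings the right-hand line from 0.28 and -0.34 at its ends to 0.11 and -0.07.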

How the data were processed

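RNA from newborn mouse medial, orbital and dorsal frontal cortex was sequenced as 100 bp paired reads. The deposited values are raw counts of fragments per gene, made by the authors with featureCounts 1.6.2 without strand, on Ensembl 94 (GRCm38), per the file headers; STAR 2.6 is named in the submitters' processing notes. Without strand, reads of overlapping genes on opposite strands cannot be told apart. Of 24 per-sample columns, 18 were matched to samples by their labels and 6 were not read. Symbols came from GENCODE M21 for 54409 of 54532 genes.

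Genes were filtered with filterByExpr (minimum count 10, minimum total 15), leaving 18730, and library sizes were scaled by TMM. The difference was tested with edgeR 4.0.16 (quasi-likelihood, R 4.3.3) with row as a block, region and region by genotype (8 residual degrees of freedom). Effects within a region came from group means with title prefix (11 residual degrees of freedom), so both effects do not add exactly to the difference. P-values were adjusted by Benjamini-Hochberg at 0.05. Counting error is small at these depths and does not cover the spread between libraries. Rows share a title prefix and index row in the labels. Deviations from group means correlated at 0.386 to 0.838 within rows (6 pairs) and at -0.654 to 0.266 between rows (12 pairs). Deviations within a group cancel out, so positive values within rows force lower ones between rows. These ranges are therefore not set against each other. Replicates differed beyond sampling noise, with a chi-square per degree of freedom of 46.8 to 191 over 12 pairs.

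Named genes are, per direction, the 12 with the lowest p of the difference (mean of at least 1 CPM, same sign in 3 sets, no predicted, Y-linked or Xist gene), up to 6 of opposite direction, the 6 per direction with the lowest p in each region, up to 4 per list, and the targeted genes; the text gives values for part of these and says where others were added. The comparison, the lists and the rules were chosen with earlier results of these data known. Alternatives covered scaling (RLE, upper quartile), filters, DESeq2 1.42.0, limma-voom 3.58.1, the block, sex and title prefix by region, each library or set left out, and, added after seeing the data, removal of a gene length trend. Scripts were tested on simulated data. Some genes that the rules name are not reported here.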

Additional observations from a re-analysis of the deposited data

Results flagged for a closer look

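The dKO effect differed between medial and orbital tissue in 275 genes by the test of the difference itself, with the dependence on single libraries given above. Among the named genes past that test, the log2 difference of the dKO effect, medial minus orbital, was higher in 29 genes: Oaf (1.99), Trem2 (1.88), Tmem119 (1.84), Spp1 (1.67), Crabp2 (1.62), Mdk (1.55), Dhrs3 (1.54), Dbi (1.53), Csrp1 (1.44), Hmgb2 (1.36), Ccnb2 (1.34), Apoe (1.33), Smpdl3a (1.31), Ndrg2 (1.25), Clic1 (1.25), Pmp22 (1.24), Fabp7 (1.20), Plk1 (1.17), Cd68 (1.17), Cenpa (1.15), Anxa5 (1.14), Cd63 (1.11), Necap2 (1.11), Olfml3 (1.09), Egln3 (1.08), Cd82 (1.01), Tspan18 (0.91), Cdk1 (0.91) and Vim (0.89). It was lower in 31 genes: Nwd2 (-2.26), Rasgrf2 (-2.09), Kcnh1 (-1.80), Lipg (-1.77), B230334C09Rik (-1.74), Lrp1b (-1.70), Tenm1 (-1.64), Gabrb2 (-1.51), Arhgef28 (-1.50), Nrip1 (-1.50), Flrt2 (-1.50), Grin3a (-1.47), Ppp1r26 (-1.33), Map1a (-1.30), Plcb1 (-1.30), Dlg2 (-1.23), Pla2g4e (-1.17), Grik2 (-1.15), Pde10a (-1.06), Rims1 (-1.03), Pclo (-1.02), Cdh10 (-1.01), Cdh8 (-1.01), Dzip3 (-1.01), Mef2c (-0.98), Dpysl3 (-0.97), Gabra3 (-0.95), Far2 (-0.91), Zeb2 (-0.84), Camk2b (-0.83) and Flrt3 (-0.81).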

How the results depend on the processing

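The number of genes whose dKO effect differed between regions, 275 as reported, was 1061 at an adjusted p of 0.1, 1600 with no filter, 469 with a filter of 1 CPM in 6 libraries, 1689 with DESeq2, 470 with limma-voom, 692 with limma-voom and the replicate block as a random effect, and 415 with the length trend removed. It was 0 with no replicate block, with the 12 libraries alone and with sex by region (1965, 2962 and 3465 genes at an unadjusted p below 0.05), and 0 to 1914 with 1 library or 1 set left out. It was 244, 284 and 260 with RLE scaling, upper-quartile scaling and title prefix by region. The cause of these changes was not tested.

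Medial minus orbital in control, 1690 genes, gave 19 with no replicate block, 2897 with DESeq2, 8 with the 12 libraries alone and 0 to 527 with 1 set left out. In dKO, 3 genes, the numbers were 1, 145, 0 and 0 to 3, and 197 with no filter. The medial dKO effect, 389 genes, gave 1120 with DESeq2, 31 with its own 6 libraries, 662 with the set as replicate block and 67 to 362 with 1 library left out. The orbital effect, 7 genes, gave 430, 2, 14 and 3 to 8, and 122 with no filter. The held-out regional medians moved little with 50 or 200 genes in place of 100.

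Among named genes only Rarb and Rxrg, both near 0, changed sign. Rarb was -0.0166 with RLE scaling, -0.0390 with no filter, -0.0227 with the filter of 1 CPM, -0.0103 with DESeq2, -0.0401 with 12 libraries, -0.0048 with title prefix by region and -0.22 with sex by region, and ran from -0.24 to 0.29 with a library or set left out. Rxrg was -0.12 with the length trend removed and ran from -0.66 to 1.01 with a library or set left out. List medians over the alternatives ran from 0.41 to 0.96 for cell cycle genes, -1.03 to -0.64 for synaptic organizers, -0.89 to -0.58 for glutamate receptors, 0.76 to 1.41 for microglial genes and 0.58 to 1.77 for meningeal genes.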
